A study of Mus musculus with 9 samples.

Results

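Mitosis and spindle checkpoint genes are described here in the uterus of mice lacking Mig-6, with or without Erbb2, on gestation day (GD) 3.5, when epithelial proliferation normally gives way to receptivity for the embryo. The set was a list of 48 genes named for their function, drawn up with earlier results of these data known, and each gene was read at the probe set, among those whose annotation names it alone, with the highest mean over all arrays. Of the 48 genes, 47 were measured in this way, of 18193 genes measured so in all, which are called all genes below. The other, Ccnb1, had no probe set naming it alone and was not analysed here. The paper lists Ccnb1 among the cell cycle genes changed by loss of Mig-6. The 47 genes were sorted by role, from entry into mitosis to the separation of chromosomes.

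RNA of whole uteri was measured on 9 arrays, 3 of each genotype. Double knockout mice, labelled Mig-6 d/d Erbb2 d/d (floxed Mig-6 and floxed Erbb2 with Pgr cre/+), lacked both genes wherever Pgr was expressed, Mig-6 d/d mice (floxed Mig-6 with Pgr cre/+) lacked Mig-6 there, and control mice carried floxed Mig-6, alone or together with floxed Erbb2, without cre. All females were mated with C57BL/6 males and had a mixed C57BL/6 and 129P2/OlaHsd background, and the methods describe adult mice where the sample labels give an age of 2 weeks. Which of these genotypes each control array came from could not be assigned. Each genotype's RNA came from several pooled mice, and nothing says that the arrays of 1 group hold different pools, so the p-values measure the spread between these arrays, which may be technical. Mig-6 encodes a feedback inhibitor of receptors of the epidermal growth factor family, to which the Erbb2 product belongs. The deletions act in cells that express the progesterone receptor, and other cells of the uterus keep both genes.

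At entry into mitosis, the kinase Cdk1 with its cyclins drives chromosome condensation by condensin and the building of a spindle. Kinetochores, built on centromeric chromatin, attach chromosomes to spindle microtubules through the NDC80 complex of Ndc80, Nuf2, Spc24 and Spc25. Until every kinetochore is attached, the spindle checkpoint proteins Mad2l1, Bub1, Bub1b and Bub3 hold back Cdc20 and the anaphase-promoting complex, so that sister chromatids stay joined. In the uterus these genes mark cycling cells, and the timing of epithelial and stromal proliferation around implantation is under control of estrogen and progesterone.

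Many mitosis genes share promoter elements, and the start-site windows of 5 genes named below are shown for this reason. Of these 5, Mad2l1 and Spc25 were called in a comparison below, and Bub1, Ndc80 and Mki67 in none. RefSeq windows of 250 bases before to 50 after the start (GRCm38.p6) were matched by symbol to 39 of the 47 measured genes. Spc24, also called below, was among the 8 without a window. The windows were searched on both strands for the cell cycle genes homology region (CHR, TTTGAA or TTCGAA), the CCAAT box (CCAAT) and E2F sites (TTCCCGC or TTGGCGC). Capitals mark every match on either strand in the sequences of Mad2l1 (chr6:66534971-66535270, plus strand), Bub1 (chr2:127831810-127832109, minus strand), Spc25 (chr2:69206164-69206463, minus strand), Ndc80 (chr17:71526808-71527107, minus strand) and Mki67 (chr7:135716330-135716629, minus strand), each written 5′ to 3′ along its gene.
Mad2l1: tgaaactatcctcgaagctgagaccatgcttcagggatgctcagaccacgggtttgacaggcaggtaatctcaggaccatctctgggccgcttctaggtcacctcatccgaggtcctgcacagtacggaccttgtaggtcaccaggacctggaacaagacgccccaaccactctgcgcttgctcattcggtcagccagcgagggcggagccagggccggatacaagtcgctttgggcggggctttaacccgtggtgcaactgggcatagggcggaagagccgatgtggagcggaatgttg
Bub1: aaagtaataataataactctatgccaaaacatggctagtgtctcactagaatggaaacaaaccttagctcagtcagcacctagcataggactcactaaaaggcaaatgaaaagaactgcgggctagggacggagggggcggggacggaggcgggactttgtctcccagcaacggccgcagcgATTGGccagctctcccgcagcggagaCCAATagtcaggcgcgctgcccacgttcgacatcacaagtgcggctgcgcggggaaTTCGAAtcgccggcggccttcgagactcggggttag
Spc25: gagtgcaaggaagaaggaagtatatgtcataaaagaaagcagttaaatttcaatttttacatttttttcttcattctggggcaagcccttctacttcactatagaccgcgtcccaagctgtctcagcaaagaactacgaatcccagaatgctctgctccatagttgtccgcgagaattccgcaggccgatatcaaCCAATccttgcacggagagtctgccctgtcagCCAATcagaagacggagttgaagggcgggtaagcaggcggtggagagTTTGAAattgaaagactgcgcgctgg
Ndc80: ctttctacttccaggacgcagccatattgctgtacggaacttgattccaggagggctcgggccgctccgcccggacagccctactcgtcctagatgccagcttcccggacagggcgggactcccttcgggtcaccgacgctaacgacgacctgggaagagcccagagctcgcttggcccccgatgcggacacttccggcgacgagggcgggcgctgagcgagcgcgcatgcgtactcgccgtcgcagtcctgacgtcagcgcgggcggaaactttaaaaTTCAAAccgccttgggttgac
Mki67: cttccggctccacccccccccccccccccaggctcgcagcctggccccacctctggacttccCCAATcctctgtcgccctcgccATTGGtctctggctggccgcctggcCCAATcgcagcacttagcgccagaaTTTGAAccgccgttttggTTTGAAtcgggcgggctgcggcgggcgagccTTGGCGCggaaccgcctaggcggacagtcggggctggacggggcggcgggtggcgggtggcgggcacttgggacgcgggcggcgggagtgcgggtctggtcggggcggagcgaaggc

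A CHR match was found in 30 of the 39 mitosis genes with a window (76.9%), against 21.7% of all 27025 genes in the promoter table. For CCAAT the share was 74.4% of the mitosis genes and 41.1% of all genes, and 27 mitosis genes held both CHR and CCAAT (69.2%, against 9.65% of all genes). A CHR match starting within 50 bases of the start site was present in 27 of the 39 (69.2%, against 6.12% of all genes). E2F matches were found in 6 of the 39 (15.4%, against 7.79% of all genes). Among 29 DNA replication genes with a window, E2F matches were in 62.1% and CHR matches in 20.7%. Matches of different motifs overlapped 3 times over all windows of the mitosis genes, a site of Ect2 being counted in each of its overlapping windows. In the printed windows, Bub1 and Spc25 had CHR and CCAAT matches, Ndc80 a CHR match just after the start, Mki67 matches to all 3 motifs and Mad2l1 none, which says only that these letters are not in that window. The 30 genes with a CHR match had a median of 0.32 for the log2 fold change of Mig-6 d/d uteri against control, and the 9 without one had 0.49, a description without a test.

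Targeted genes and markers of other cells were read first. Errfi1, the gene of Mig-6, had intensities of 76.05, 29.8 and 40.3 in double knockout uteri and of 15.1, 15.96 and 254.6 in the uteri labelled Mig-6 d/d, against 454.0, 564.5 and 286.0 in control uteri. Replicate 3 of the libraries labelled Mig-6 d/d thus stood close to the lowest control array, apart from the other arrays of its label. Erbb2 read 18.3, 9.88 and 18.45 in double knockout uteri, 46.55, 39.5 and 44.5 in Mig-6 d/d uteri and 29.4, 36.7 and 45.7 in control uteri. The summed intensity of 14 epithelial markers (among them Cdh1, Epcam and Krt8) was 3106 to 4500 in double knockout uteri and 8752 to 13250 in Mig-6 d/d uteri, against 3435 to 6080 in control uteri. In Mig-6 d/d uteri 7 of these 14 markers were called higher than in control (2.55% of all genes were). Called lower were 2 of 12 stromal and 2 of 6 endothelial markers (1.81% of all genes), and 8 of 8 smooth muscle markers had lower values with none called. In double knockout against Mig-6 d/d uteri 10 of the 14 epithelial markers were called lower (3.76% of all genes were). Called higher there were 2 of 12 stromal, 3 of 8 smooth muscle, 4 of 6 endothelial and 1 of 6 ovary and oviduct markers (3.73% of all genes). Of 7 leukocyte markers, 5 had higher and 2 lower values in Mig-6 d/d against control, with a median log2 fold change of 0.01. These values ran from -0.67 for Csf1r to 1.14. Csf1r was called lower (1 of 7, beside 1.81% of all genes) and 0 were called higher (beside 2.55%). Sums of the leukocyte markers overlapped across the 3 groups. The 6 ovary and oviduct markers summed to 97.7 to 116.2 in double knockout uteri and 52.6 to 108.0 in Mig-6 d/d uteri, against 55.0 to 69.7 in control uteri, and the largest difference among them was that of Ovgp1 (1.85 in double knockout against control, adjusted p = 0.442). The 7 embryo markers and the 4 erythroid markers all had a mean intensity below 16, and the embryo markers summed to 30.3 to 32.0 in Mig-6 d/d uteri, against 29.9 to 32.9 in control uteri. Since whole uteri were measured, fewer cells of a type and less RNA per cell cannot be told apart, and the part of these marker shifts in the values below was not tested.

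In Mig-6 d/d uteri against control, Mad2l1 and Spc24 rose, and most other mitosis genes had higher values that did not pass the test. A gene was called where limma gave an adjusted p under 0.05, with Benjamini-Hochberg adjustment across 45037 probe sets, and the change exceeded 1.5-fold. By this rule 2 of the 47 genes were called higher (4.26%), where 2.55% of all 18193 genes were, and 0 were called lower, where 1.81% of all genes were. Of the 47 genes, 43 had a higher mean than control in Mig-6 d/d uteri (91.5%), a direction seen in 44.8% of all genes, and their median log2 fold change was 0.33 where that of all genes was -0.03. In 13 genes every Mig-6 d/d array lay above every control array (27.7%), as in 11.6% of all genes, and 17 had an unadjusted p under 0.05 in this direction (36.2%), as in 11.3% of all genes. The share called was thus near that of all genes, while shares by direction and by separated arrays stood above it. The genes differed together between arrays of 1 genotype, as given below, so they are not separate results. The list was drawn up with earlier results known, and these shares were not tested.

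Mad2l1, Spc24 and Spc25 fell between the knockout groups, a comparison given throughout as double knockout over Mig-6 d/d, which shares the Mig-6 d/d arrays with the comparison above. These 3 of 47 genes (6.38%) stand beside 3.76% of all genes called lower, and none of the 47 was called higher, beside 3.73% of all genes. Lower means were found for 44 of the 47 (93.6%, against 43.9% of all genes), with a median log2 fold change of -0.39 beside 0.03 for all genes. Arrays lay apart, with all double knockout arrays below all Mig-6 d/d arrays, for 19 genes (40.4%, against 14.2% of all genes). An unadjusted p under 0.05 with a lower value was found for 24 genes (51.1%, against 11.8%).

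For double knockout uteri against control, limma called 0 of the 47 genes, where 0.214% of all genes were called higher and 0.198% lower. At an unadjusted p under 0.05, 0 genes were higher (4.25% of all genes were) and 3 lower (6.38%, against 3.72% of all genes). Kif20a (-0.46), Kif23 (-0.31) and Smc4 (-0.58) were these 3 genes, given as log2 fold changes with adjusted p of 0.632, 0.649 and 0.505. The methods' t-test, with the fold limit, found 0 of the 47 before adjustment, where 114 of 18193 genes were higher and 97 lower, and 0 after it. Lower means were found for 29 of the 47 (61.7%, against 47.3% of all genes), the median log2 fold change was -0.02, and the arrays of Foxm1, Kif23 and Smc4 lay below all control arrays (6.38%, against 5.32%). The 95% interval of the fold change lay within 1.5-fold in both directions for 23 of the 47 genes, and for none did it reach 2-fold higher. That of Smc4 ran from -1.06 to -0.11 on the log2 scale and so reached 2-fold lower. With 3 arrays a group the standard error of a log2 fold change ran from 0.10 to 0.34 over the 47 genes.

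**Figure D1:**
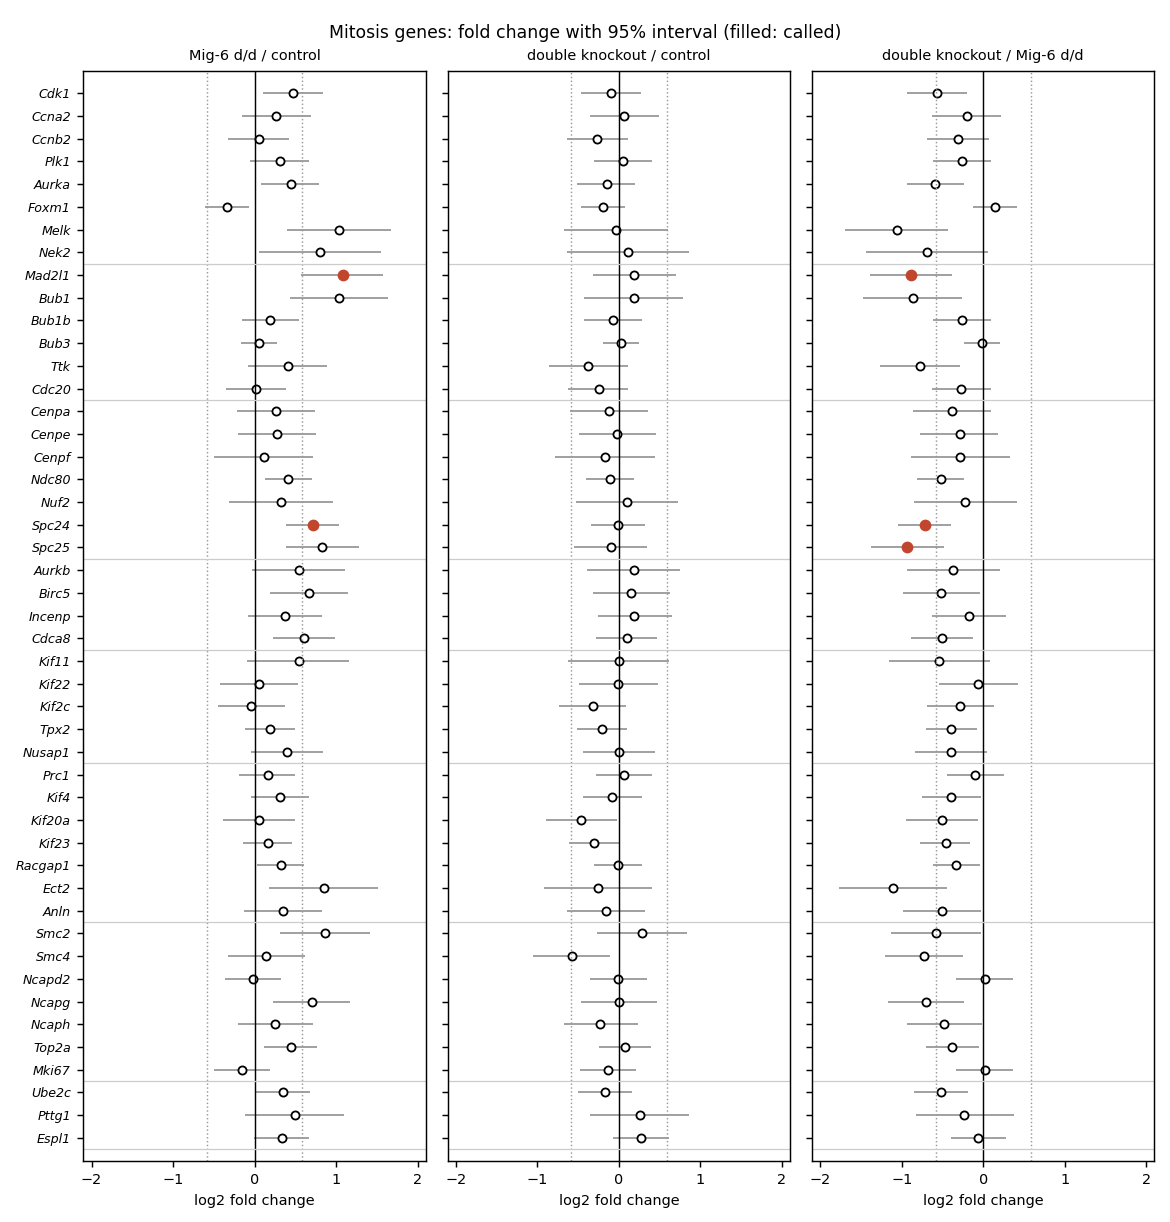
Log2 fold change (x axis) of the 47 mitosis genes (y axis, ordered by role, with grey lines between roles) in the 3 comparisons. Points are limma estimates, bars 95% intervals, dotted lines 1.5-fold, and filled points the called genes, Mad2l1 and Spc24 in the left panel and Mad2l1, Spc24 and Spc25 in the right panel.

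The spindle checkpoint genes held the member with the largest change in Mig-6 d/d uteri. Mad2l1, whose protein Mad2 binds Cdc20 and holds the anaphase-promoting complex inactive, had intensities of 128.9, 164.5 and 241.1 in double knockout uteri, 274.6, 353.9 and 331.3 in Mig-6 d/d uteri, and 174.3, 116.6 and 169.0 in control uteri. All 3 Mig-6 d/d arrays lay above the 6 others, and the double knockout arrays overlapped those of control, with replicate 3 the highest. Mad2l1 was 2.11-fold higher than control in Mig-6 d/d uteri (log2 fold change 1.08 ± 0.23, SE, adjusted p = 0.0353) and lower in the double knockout than in Mig-6 d/d uteri (-0.89 ± 0.23, adjusted p = 0.0466). The paper had already listed Mad2l1 as changed in these directions on the same arrays. The call against control was lost without control replicate 2 (adjusted p = 0.112), without any 1 of the Mig-6 d/d replicates 1, 2 or 3 (0.0737, 0.0871 and 0.105) and without double knockout replicate 2 (0.0559), with log2 fold changes of 0.89 to 1.18. The call against Mig-6 d/d uteri was lost in 7 of the 9 fits with 1 array left out, at adjusted p of up to 0.149, the exceptions being control replicate 2 and double knockout replicate 3. That call was also lost with quantile normalization applied again (adjusted p = 0.0598). With 16 added to each intensity, the calls against control and against Mig-6 d/d uteri were lost (0.0837 and 0.0998).

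Bub1, the kinase that recruits other checkpoint proteins to kinetochores, is given outside the naming rule, chosen after its values were seen. It read 51.8, 77.6 and 50.7 in double knockout, 84.1, 110.1 and 132.3 in Mig-6 d/d and 75.9, 36.3 and 51.4 in control uteri. Mig-6 d/d arrays all lay above the rest, but the control arrays spread more than 2-fold among themselves, and the log2 fold change of 1.04 ± 0.27 against control did not pass (adjusted p = 0.0686). The other checkpoint genes had smaller values in Mig-6 d/d uteri against control, which were 0.41 for Ttk, the kinase MPS1 that starts checkpoint signalling, 0.19 for Bub1b, 0.05 for Bub3 and 0.02 for Cdc20, the activator that the checkpoint holds back. Between the knockout groups, Ttk had a value of -0.78 (adjusted p = 0.0629), with arrays apart, and Bub3 had -0.02.

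**Figure D2:**
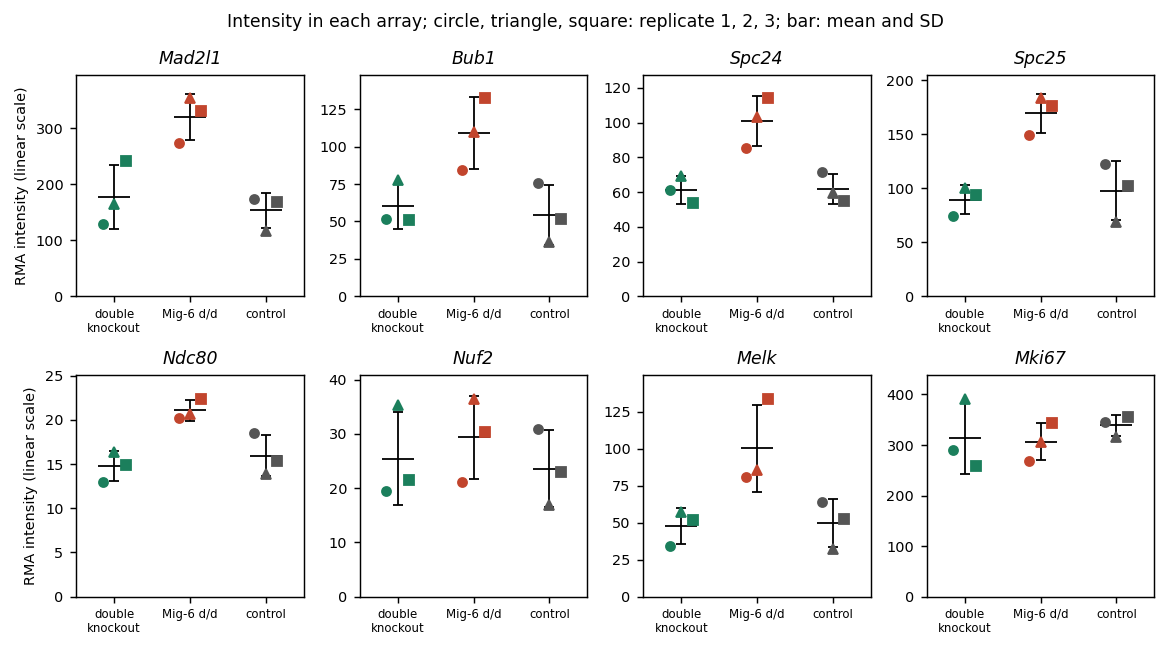
Intensity on a linear scale (y axis, from 0) of 8 mitosis genes in each array of the 3 genotypes (x axis). Symbols give the replicate number and bars the mean and SD of 3 arrays. Mig-6 d/d arrays stand above all others for Mad2l1, Bub1, Spc24, Spc25, Ndc80 and Melk, while the groups overlap for Nuf2 and Mki67.

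Among 7 kinetochore and centromere genes, members of the NDC80 complex carried the calls. Spc24, a subunit at the chromosome-facing end of the complex, read 61.3, 69.4 and 53.4 in double knockout uteri, 85.5, 103.5 and 114.0 in Mig-6 d/d uteri, and 71.5, 59.5 and 54.8 in control uteri. The Mig-6 d/d arrays were the 3 highest, and the other groups overlapped. Spc24 was higher than control in Mig-6 d/d uteri (log2 fold change 0.71 ± 0.15, adjusted p = 0.0342) and lower in the double knockout than in Mig-6 d/d uteri (-0.72 ± 0.15, adjusted p = 0.02). Its call against control was lost without control replicates 2 or 3 (adjusted p = 0.106 and 0.0786), without any 1 of the Mig-6 d/d replicates 1, 2 or 3 (0.0529, 0.0796 and 0.113) and without double knockout replicate 1 (0.0534). It was also lost with the replicate number as a block (0.0509) and with only the 6 arrays compared (0.0663). The call between the knockout groups was lost without Mig-6 d/d replicates 2 or 3 (0.0538 and 0.0725) and without double knockout replicates 1 or 3 (0.0679 and 0.0655).

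Spc25, which pairs with Spc24, read 74.25, 100.6 and 93.9 in double knockout uteri, 149.2, 183.4 and 176.5 in Mig-6 d/d uteri, and 122.7, 68.3 and 102.3 in control uteri. It fell between the knockout groups (log2 fold change -0.93 ± 0.20, adjusted p = 0.0246), and its value in Mig-6 d/d against control was 0.83 ± 0.20 (adjusted p = 0.0544). The lower call was lost without any 1 of the 6 arrays of the groups compared, at adjusted p of 0.0524 to 0.0956, and kept without any 1 of the control arrays. A second, dim probe set of Spc25 had log2 fold changes of 0.10 and -0.03 in these comparisons, and the mean over both probe sets was 0.47 in Mig-6 d/d against control and -0.48 between the knockout groups.

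The partners Ndc80 and Nuf2, which bind microtubules, are given because they complete the complex, also chosen after their values were seen. Ndc80 read 12.96, 16.4 and 14.9 in double knockout, 20.2, 20.6 and 22.4 in Mig-6 d/d and 18.5, 13.9 and 15.4 in control uteri, the dimmest of the 47 genes. Its log2 fold change was 0.41 ± 0.13 in Mig-6 d/d against control (adjusted p = 0.115) and -0.52 ± 0.13 between the knockout groups (adjusted p = 0.0401), where it passed the p limit but not the fold limit. Nuf2 read 19.4, 35.35 and 21.6 in double knockout, 21.2, 36.5 and 30.35 in Mig-6 d/d and 30.9, 16.8 and 23.0 in control uteri. Its 3 groups overlapped, and its interval in Mig-6 d/d against control ran from -0.31 to 0.96. Values of the remaining kinetochore genes in Mig-6 d/d against control were 0.26 for Cenpa, the centromeric histone, 0.27 for Cenpe, a kinetochore motor, and 0.11 for Cenpf, with adjusted p of 0.57 to 0.894.

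The 8 genes of mitotic entry had a median of 0.37 on the log2 scale for Mig-6 d/d against control, 7 of them higher and 0 called. Melk, a kinase expressed in dividing and progenitor cells, had the smallest p of this role. It read 34.3, 57.0 and 51.9 in double knockout uteri, 81.1, 85.5 and 133.8 in Mig-6 d/d uteri, and 64.2, 32.2 and 52.2 in control uteri. Its Mig-6 d/d arrays lay above all others, with values of 1.03 ± 0.29 against control (adjusted p = 0.0796) and -1.06 ± 0.29 for double knockout against Mig-6 d/d (adjusted p = 0.054). Cdk1, the kinase that drives mitotic entry, read 193.3, 243.1 and 176.1 in double knockout, 241.6, 341.3 and 327.1 in Mig-6 d/d and 246.7, 210.9 and 195.6 in control uteri. Replicate 1 of Mig-6 d/d lay below replicate 1 of control, and Cdk1 had values of 0.47 ± 0.17 (adjusted p = 0.159) and -0.57 ± 0.17 (adjusted p = 0.0711) in the same comparisons.

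Further kinases and cyclins of entry spread widely in Mig-6 d/d against control. Nek2, a centrosomal kinase, had 0.80 on the log2 scale (adjusted p = 0.244), Aurka, the spindle pole kinase, 0.44, Plk1, the polo-like kinase, 0.31, and the cyclins Ccna2 and Ccnb2 0.26 and 0.05. Foxm1, the transcription factor of many mitosis genes, was the lowest of the 47 genes at -0.34 ± 0.12 (adjusted p = 0.169). It read 24.4, 26.0 and 26.2 in double knockout, 20.6, 24.3 and 24.6 in Mig-6 d/d and 27.4, 34.5 and 26.4 in control uteri, and both knockout groups lay below every control array. Foxm1 is named with these values although the naming rule did not select it.

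All 4 genes of the chromosomal passenger complex, which corrects faulty attachments and guides cytokinesis, had higher means than control in Mig-6 d/d uteri, with a median log2 fold change of 0.57 and none called. Cdca8, which encodes Borealin and had the smallest p of the complex, read 107.1, 137.7 and 99.3 in double knockout uteri, 145.6, 152.4 and 189.3 in Mig-6 d/d uteri, and 129.2, 90.7 and 102.2 in control uteri. The Mig-6 d/d arrays were the 3 highest, at 0.60 ± 0.17 against control (adjusted p = 0.0837). Birc5, which encodes Survivin, had 0.67 on the log2 scale (adjusted p = 0.122), Aurkb, the kinase of the complex, 0.54 (adjusted p = 0.305), and Incenp, its scaffold, 0.37 (adjusted p = 0.391). In double knockout against control uteri the 4 values were 0.10 to 0.19.

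Spindle motors and assembly factors had a smaller median, 0.19 over 5 genes in Mig-6 d/d against control. An unadjusted p under 0.05 was reached by 0 of them, beside 11.3% of all genes with a higher and 12.7% with a lower value. Nusap1, which bundles spindle microtubules, read 65.9, 96.1 and 82.05 in double knockout, 94.9, 112.1 and 111.5 in Mig-6 d/d and 98.5, 58.6 and 89.9 in control uteri. Control replicate 1 overlapped the Mig-6 d/d arrays, and the log2 fold change of 0.40 had an interval from -0.05 to 0.84. Kif11, the motor that pushes spindle poles apart, had 0.54, Tpx2, an activator of Aurka, 0.19, Kif22, a chromosome-bound motor, 0.05, and Kif2c, a microtubule depolymerase, -0.04.

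For the 7 genes of the central spindle and cytokinesis all means were higher than control in Mig-6 d/d uteri, with a median log2 fold change of 0.31 and 0 called. Ect2, the exchange factor that activates RhoA at the division site, read 38.0, 72.25 and 57.5 in double knockout uteri, 100.6, 111.3 and 141.2 in Mig-6 d/d uteri, and 91.8, 41.5 and 71.3 in control uteri. Its Mig-6 d/d arrays lay above all others, and the control arrays spread more than 2-fold. Values of Ect2 were 0.85 ± 0.30 in Mig-6 d/d against control (adjusted p = 0.158) and -1.11 ± 0.30 between the knockout groups (adjusted p = 0.0545), the lowest of the 47 genes in that comparison. Racgap1, a partner of Ect2, had 0.32 against control, Anln, a scaffold of the contractile ring, 0.35, Kif4, a chromosome-associated motor, 0.31, Kif23, the motor that works with Racgap1, 0.16, Prc1, which bundles midzone microtubules, 0.16, and Kif20a, another midzone motor, 0.05. Between the knockout groups 6 of the 7 genes had a lower value with an unadjusted p under 0.05, as had 11.8% of all genes. Prc1 was the exception (-0.10), and 0 of the 7 were called there.

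The 7 genes of chromosome structure had log2 fold changes of -0.15 to 0.86 in Mig-6 d/d against control, with a median of 0.25 and 0 called. Smc2, the core subunit of condensin, read 138.1, 201.1 and 163.8 in double knockout uteri, 228.4, 271.5 and 245.1 in Mig-6 d/d uteri, and 203.3, 91.1 and 136.9 in control uteri. Mig-6 d/d arrays were the highest again, with control arrays more than 2-fold apart, and the values were 0.86 ± 0.25 (adjusted p = 0.0923) against control and -0.58 ± 0.25 (adjusted p = 0.225) between the knockout groups. Top2a, the topoisomerase that untangles chromosomes, read 303.6, 366.2 and 275.8 in double knockout, 373.7, 396.9 and 450.9 in Mig-6 d/d and 355.1, 266.8 and 279.1 in control uteri. Its arrays lay apart by a narrow margin, at 0.45 ± 0.14 against control (adjusted p = 0.126).

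Mki67, which encodes the proliferation marker Ki67 that coats mitotic chromosomes, read 289.5, 391.9 and 258.5 in double knockout uteri, 269.1, 306.7 and 342.7 in Mig-6 d/d uteri, and 345.7, 315.7 and 356.2 in control uteri. The 3 groups overlapped, and in Mig-6 d/d against control its log2 fold change was -0.15 with an interval from -0.50 to 0.19, which does not reach 1.5-fold higher. The condensin subunits gave values of 0.70 for Ncapg (adjusted p = 0.103), 0.25 for Ncaph, 0.14 for Smc4 and -0.02 for Ncapd2 in the same comparison. Between the knockout groups they were -0.70 for Ncapg, -0.48 for Ncaph, -0.73 for Smc4 (adjusted p = 0.0748) and 0.02 for Ncapd2.

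The 3 genes of anaphase had log2 fold changes of 0.33 to 0.49 in Mig-6 d/d against control. Ube2c, the ubiquitin-conjugating enzyme of the anaphase-promoting complex, read 346.3, 357.4 and 294.4 in double knockout uteri, 394.8, 453.3 and 597.2 in Mig-6 d/d uteri, and 387.4, 385.1 and 349.0 in control uteri. All Mig-6 d/d arrays were above the rest, the lowest of them by a few units, and the value was 0.35 ± 0.15 (adjusted p = 0.255). Pttg1, the securin that keeps separase inactive, had 0.49 (adjusted p = 0.398), and Espl1, separase itself, 0.33 (adjusted p = 0.298). Espl1 also had 0.27 in double knockout against control, so that its value between the knockout groups was -0.06.

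The mitosis genes differed together between arrays of 1 genotype. Set against the mean of the control arrays, their median log2 intensity was -0.24, 0.21 and -0.12 in the 3 double knockout arrays, 0.08, 0.38 and 0.48 in the 3 Mig-6 d/d arrays, and 0.23, -0.19 and -0.02 in the 3 control arrays. Mig-6 d/d replicate 1 was the lowest array of its group for 47 of 47 genes, and replicate 3, the library in which Errfi1 stood near control, was the highest for 37. Control replicate 1 was the highest control array for 40 genes, control replicate 2 the lowest for 34, and double knockout replicate 2 the highest of its group for 43. The median of control replicate 1 thus lay above that of Mig-6 d/d replicate 1. The median over all genes, measured the same way, stayed between -0.036 and 0.027 in every array.

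**Figure D3:**
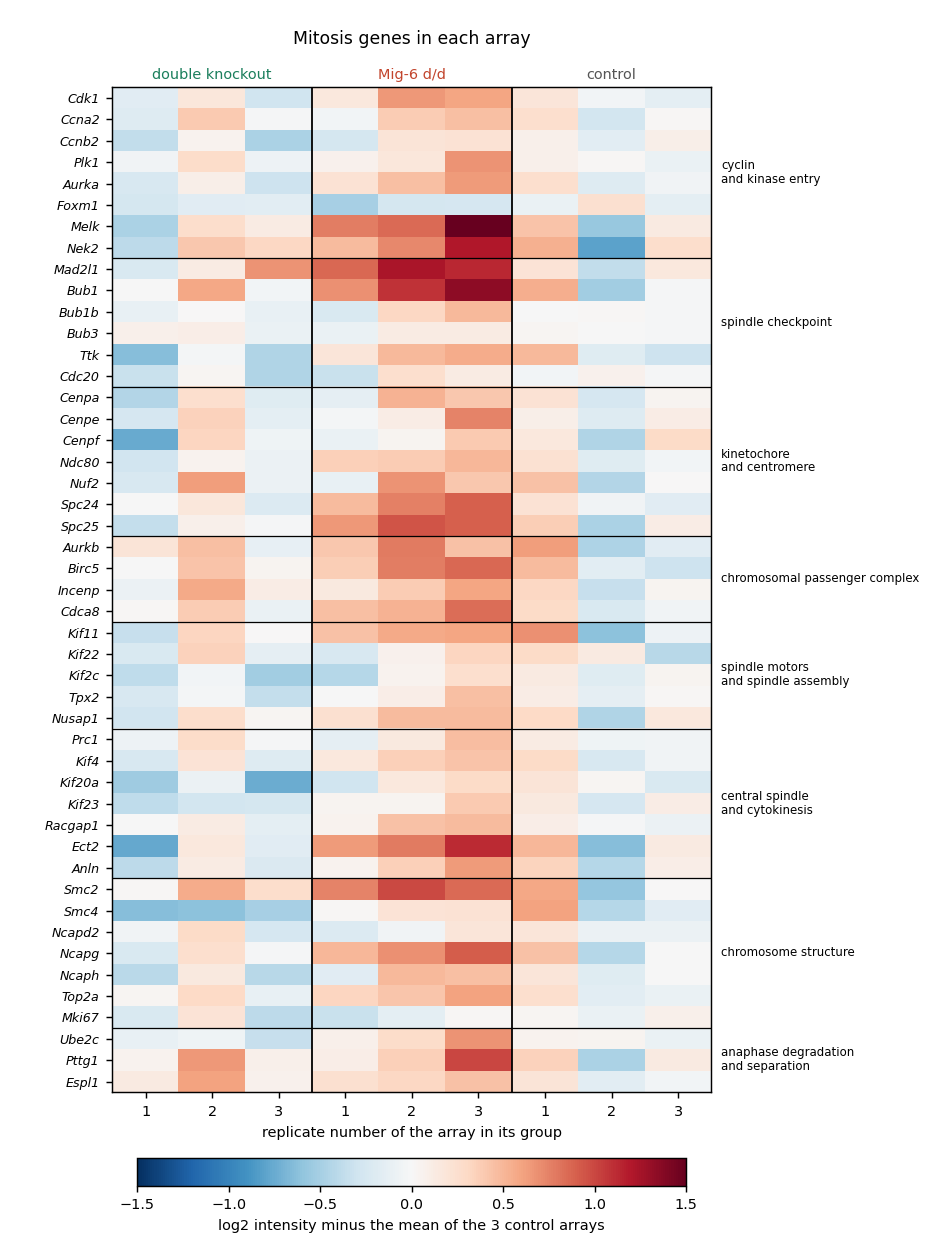
Log2 intensity minus the mean of the 3 control arrays (colour) for 47 mitosis genes (rows, by role) in the 9 arrays (columns, by genotype and replicate number). Mig-6 d/d replicate 1 has the lowest value of its group for 47 of 47 genes, and control replicates 1 and 2 differ from each other across most genes.

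Counts of calls changed with single arrays left out, as did those of all genes. Without that library, replicate 3 of those labelled Mig-6 d/d, 0 of the 47 genes were called in Mig-6 d/d against control and 0 in double knockout against Mig-6 d/d, with median log2 fold changes of 0.24 and -0.34, and 0.797% of all genes were called higher in the first and 2.17% lower in the second. Without control replicate 1, 11 genes were called higher than control in Mig-6 d/d uteri (23.4%, where 3.24% of all genes were), which were Mad2l1, Spc24, Melk, Bub1, Spc25, Aurkb, Birc5, Cdca8, Kif11, Smc2 and Ncapg. Without control replicate 2, or without Mig-6 d/d replicate 1 or 2, the count was 0 (0.737%, 0.753% and 2.71% of all genes), and without control replicate 3 or without double knockout replicate 1 or 2 it was 1 (2.67%, 1.97% and 1.9% of all genes). The median log2 fold change of the 47 genes in this comparison stayed between 0.20 and 0.47 over all arrays left out.

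Probe sets of 1 gene did not always agree. Of the 47 genes 32 had further probe sets, 61 in all, each dimmer, by the rule of choice, than the one used. In Mig-6 d/d against control 38 of the 61 had the sign of the probe set used. There 0 of the 61 were called, beside 772 of all 45037 probe sets called higher and 493 lower. Between the knockout groups 46 of 61 had that sign and 5 were called lower, beside 1238 of all 45037 probe sets. These 5 were those of Cdca8 (-0.62), Kif2c (-0.77), Smc4 (-0.97) and a pair of Smc2 (-1.33 and -1.36). A dim probe set of Cenpa with a mean of 10.3 was called higher there (0.79) and in double knockout against control (1.07), opposite in sign to the bright one. In these comparisons 1074 and 89 of the 45037 probe sets were called higher. The 47 probe sets used had means of 17.2 for Ndc80 to 658.0 for Bub3, all above the array medians of 7.87 to 8.24.

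Further mitosis genes were taken from 7 lists fixed by function, with 120 genes measured. In Mig-6 d/d against control 86 of the 120 were higher and 34 lower, where 44.8% of all genes were higher and 55.2% lower. Of the 120, 4 were called higher (3.33%, beside 2.55% of all genes) and 0 lower (beside 1.81%), and the median log2 fold change was 0.20. Between the knockout groups 92 were lower (43.9% of all genes were), 8 were called lower (6.67%, beside 3.76% of all genes) and 0 higher (beside 3.73%), and the median was -0.19. With 1 array left out the count called higher was 0 to 22 (0.737% to 3.24% of all genes), the highest without control replicate 1. The count called lower was 1 to 11 (1.76% to 4.24% of all genes). Against control, 0 were called in double knockout uteri, where 0.214% of all genes were called higher and 0.198% lower. At an unadjusted p under 0.05, 1 was higher and 3 were lower there, beside 4.25% and 3.72% of all genes. The lists differed in their medians in Mig-6 d/d against control, from -0.02 for 15 subunits and regulators of the anaphase-promoting complex to 0.37 for both kinetochore lists.

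Of the inner kinetochore and centromere loading list, Mis18a, which helps to load the centromeric histone, read 56.5, 61.6 and 59.05 in double knockout, 102.0, 103.3 and 140.3 in Mig-6 d/d and 80.6, 42.5 and 64.4 in control uteri. All Mig-6 d/d arrays lay above the rest, and it was higher than control in Mig-6 d/d uteri (log2 fold change 0.91 ± 0.21, adjusted p = 0.0451) and lower in the double knockout than in Mig-6 d/d uteri (-0.95 ± 0.21, adjusted p = 0.0267). These calls were lost in 8 and 5 of the 9 fits with 1 array left out, the exceptions being control replicate 1 for the first, and the 3 control replicates and Mig-6 d/d replicate 2 for the second. Cenph, another inner kinetochore protein, fell in the second of these comparisons (-0.83, adjusted p = 0.0474), with 0.61 (adjusted p = 0.158) in the first, a call lost in 6 of these 9 fits and with the replicate number as a block, and the difference between the comparisons was not tested. In the outer kinetochore list none was called, and Trip13, which remodels Mad2, had the smallest p with 1.05 ± 0.26 in Mig-6 d/d against control (adjusted p = 0.0588).

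Pbk, a kinase active in mitosis, was called in both comparisons (0.89, adjusted p = 0.0479, and -0.90, adjusted p = 0.0311), which were lost in 7 and 5 of the 9 fits with 1 array left out and, in both, with the replicate block. Cks2, a small partner of Cdk1, was called between the knockout groups (-0.72, adjusted p = 0.0404), as were Kif20b, a midzone motor (-0.77, adjusted p = 0.0434), and Fbxo5, an inhibitor of the anaphase-promoting complex (-0.81, adjusted p = 0.0493). Each of these 3 calls was lost without any 1 of the 6 arrays compared and with the replicate block, and those of Kif20b and Fbxo5 also without control replicate 3. Among regulators of the E2F and MuvB families, E2f8, a repressor that is itself an E2F target, had 0.97 against control (adjusted p = 0.0229) and -1.04 between the knockout groups (adjusted p = 0.00969). Rbl1, the pocket protein p107, was called against control (0.83, adjusted p = 0.0457), and E2f3 between the knockout groups (-0.64, adjusted p = 0.0293). The call of E2f8 against control was lost without control replicate 2 or Mig-6 d/d replicate 3, and that between the knockout groups in none of the 9 fits. Rbl1 lost its call in 8 of the 9, all but that without control replicate 1, and E2f3 in 5, without any 1 of the Mig-6 d/d arrays or double knockout replicates 1 or 3, and both with the replicate block. Over the mean of its probe sets the value was 0.48 for E2f8 and 0.32 for Rbl1 against control, and -0.56 for E2f8 and -0.26 for E2f3 between the knockout groups. In the cohesin list Nipbl, the cohesin loader, had the smallest p, with -0.56 in double knockout against control (adjusted p = 0.115).

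DNA replication genes, measured the same way, give the other side of the cell cycle. The list of 34 includes genes that the paper had already reported as changed on these arrays, such as Mcm3 and Pcna. Of the 34, 33 were higher than control in Mig-6 d/d uteri (44.8% of all genes were) and 13 were called higher (38.2%, beside 2.55% of all genes). Their median log2 fold change was 0.60, where it was 0.33 for the 47 mitosis genes. Among the replication genes, Cdc6, which loads the replicative helicase, had 1.86 and Mcm3, a helicase subunit, 1.25. Between the knockout groups 34 of 34 were lower (43.9% of all genes were) and 13 were called lower (38.2%, beside 3.76% of all genes). The median there was -0.60, beside -0.39 for the mitosis genes. With 1 array left out, 6 to 18 replication genes were called higher in Mig-6 d/d against control (0.737% to 3.24% of all genes). Between the knockout groups 6 to 16 were called lower (1.76% to 4.24%). The difference between both lists was not tested. By array, the replication genes had medians of 0.49, 0.73 and 0.64 above the control mean in the 3 Mig-6 d/d arrays, where the mitosis genes had 0.08, 0.38 and 0.48.

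**Figure D4:**
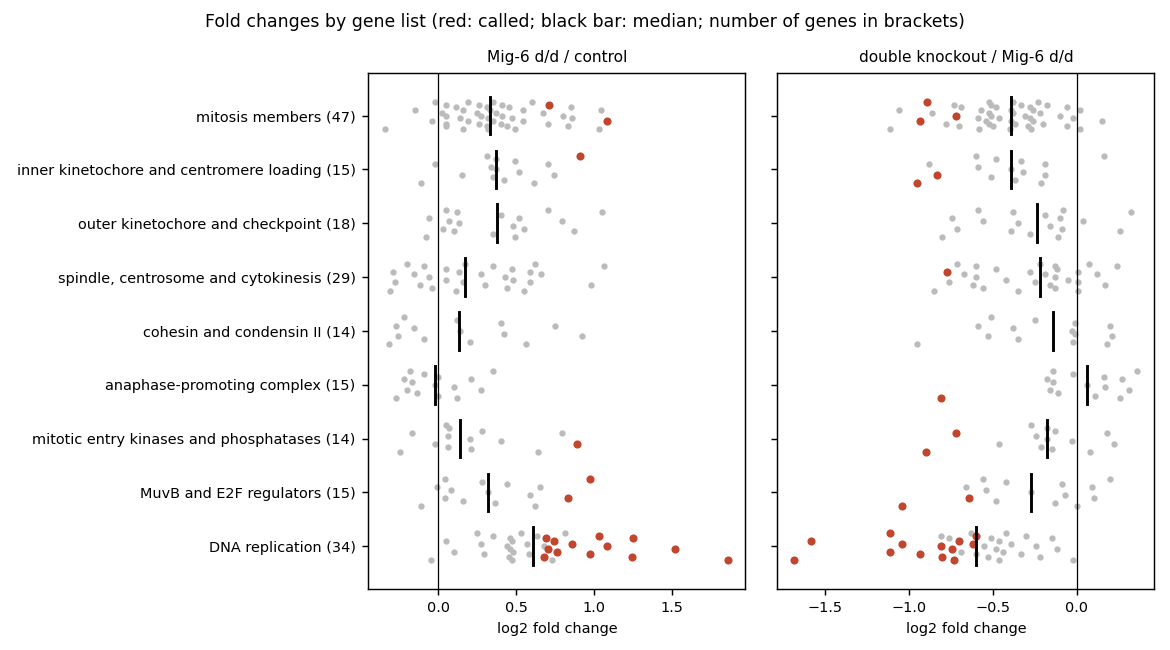
Log2 fold change (x axis) of single genes (points) in the 47 mitosis genes, 7 further mitosis lists and DNA replication genes (rows), in Mig-6 d/d against control (left) and double knockout against Mig-6 d/d (right). Red points are called genes and black bars list medians, 0.33 and -0.39 for the 47 mitosis genes and 0.60 and -0.60 for DNA replication. The DNA replication list has 13 red points in each panel.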

How the data were processed

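The table deposited by the authors gives the intensity of 45037 probe sets on each array on a linear scale, after RMA with quantile normalization in Bioconductor, and log2 was taken here. Scanner files, detection calls and batches were not used here, so the number of arrays limits the precision. Platform annotation named 1 gene for 34945 probe sets. The members and lists were chosen with earlier results of these data known. All 3 groups entered 1 model in limma 3.58.1 (R 4.3.3, lmFit and eBayes), with Benjamini-Hochberg adjustment over all probe sets, in 3 comparisons. The script was tested on simulated data.

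Values per array are given, by rule, for called genes of the 47, for Mki67, Top2a and Cdk1, and for the gene of each role with the smallest p in Mig-6 d/d against control. Of the other lists up to 4 called genes, or else the gene with the smallest p, are named by rule, most with fold changes only. The methods name an unpaired t-test for 2 groups, run here as an alternative (the methods' t-test). Replicate numbers were not used as pairs. After the mean of each group was subtracted, what remained in same-numbered arrays of different groups correlated at -0.133 to 0.203. Within groups, the log2 intensities of arrays correlated at 0.9877 to 0.994 and no arrays were identical. Promoter windows came from RefSeq (GRCm38.p6). Figures were drawn with matplotlib (Python).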

Additional observations from a re-analysis of the deposited data

How the results depend on the processing

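Counts of the 47 mitosis genes and each named mitosis gene were recomputed under 21 alternatives, 9 of which left out 1 array, and medians under all of these except that without a fold limit. For the 120 further mitosis genes and the replication genes these were run after the data were seen, and for the marker lists they were not run. Percentages are the shares of all genes called in the same direction under that alternative. The count of mitosis genes called in Mig-6 d/d against control (2) was 0 with 16 added to each intensity before the logarithm (0.835%). It was 4 among probe sets with a mean intensity of 16 or more (5.16%). It was 1 with only the 6 arrays compared (1.3%) and 1 with the replicate number as a block (3.01%), Spc24 being lost in both. By the methods' t-test it was 0 after adjustment, as for all genes. Before adjustment that test, with the fold limit, gave 5 higher, where 602 of 18193 genes were higher. With 1 array left out the count was 0 to 11 (0.737% to 3.24%). The count between the knockout groups (double knockout over Mig-6 d/d, 3) was 2 with quantile normalization applied again (3.63%), Mad2l1 being lost, and 1 with 16 added (1.7%). It was 7 with the intensity minimum (6.9%), 5 with a trended and robust variance (3.68%), 10 with only the 6 arrays compared (4.51%) and 8 with array weights (4.74%). It was 6 over 1 probe set per gene (4.16%), 6 with all probe sets of a gene averaged (3.57%), and 0 to 9 with 1 array left out (1.76% to 4.24%). The methods' t-test gave 0 after adjustment (0.066%) and, with the fold limit, 10 before it, where 847 of 18193 genes were lower. The intensity minimum and the use of 1 probe set per gene lower the number of tests, and the cause of the other differences was not tested. The replicate block left the count between the knockout groups at 3 and that of double knockout against control at 0. Of the 120 further mitosis genes, 0 to 22 were called higher in Mig-6 d/d against control over all alternatives (0% to 5.16%). Between the knockout groups 0 to 14 of them were called lower (0.066% to 6.9%). With the replicate block 2 of the 120 were called in each (3.01% and 4.07%). Of the replication genes 0 to 18 and 1 to 17 were called, beside the same ranges of shares. Medians of both lists kept their sign. Counts in double knockout against control were 0 under all 21 alternatives. Medians of the mitosis genes moved by less than their spread between arrays (0.21 to 0.22) in every alternative run. With 1 array left out they were 0.20 to 0.47, -0.53 to -0.34, and, for double knockout against control, -0.18 to 0.07. No called gene of the 47 changed sign. Of the 47 genes 36 kept their side of the threshold in all alternatives in Mig-6 d/d against control, and 34 between the knockout groups.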
